A study of Rattus norvegicus with 12 samples.

Results

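Vegfa, Car9, Egln1, Egln3, Adm, Ankrd37, Ndrg1, P4ha1, P4ha2 and Kdm3a are genes that cells switch on when oxygen falls and that do not encode glycolytic enzymes. They were taken by name, 10 of the 20523 gene symbols on the array, with every probe that is not a control and carries one of these names. This gave 12 probes of 45598, 3 of them for Vegfa and 1 for each other gene. The signal came from 12 one-colour Agilent arrays of N27 cells, an immortalised rat line labelled as dopaminergic neurons, grown to 80% confluence with no hypoxia treatment named. Of these, 7 cultures (KO) had been edited with CRISPR to remove VDAC1, a pore through which metabolites cross the outer membrane of mitochondria, and 5 were wild type (WT). The comparison asks which transcripts differ once the channel is lost. The number of clones, the site of the edit and whether cultures were grown independently are not given in the sources used here. Every p-value below is thus relative to the spread among these particular cultures, which may be technical.

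These genes are read-outs of the hypoxia-inducible factors (HIF), transcription factors made of an oxygen-labile alpha subunit and a stable beta subunit. In oxygen, prolyl hydroxylases mark the alpha subunit for destruction by the VHL ubiquitin ligase. When oxygen is short, or when the hydroxylases are otherwise inhibited, the alpha subunit persists and binds a short DNA core in its target genes. The targets cover secreted signals, acid handling, matrix collagen, chromatin and feedback on the oxygen sensors themselves. Mitochondria bear on this system because respiration consumes oxygen and the citric acid cycle makes a co-substrate of the hydroxylases.

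The core bound by HIF, ACGTG or GCGTG on either strand, was looked up in RefSeq promoters of the GRCr8 rat assembly, from 250 bases before to 50 bases after the gene's start. The table held 9 of the 10 genes and 11 promoters for them, and 6 promoters, 1 for each of 6 genes, had a match, against 41.64% of all 33469 promoters. Ankrd37 and P4ha2 had 5 matches each, a number that 1.52% of all promoters reached, and P4ha1 had 3, which 8.15% reached. Egln1 had 2 matches, Car9 and 1 of the 2 Kdm3a promoters had 1, and no match stood in the windows of Adm, Egln3 and Vegfa. The 4 promoters below are shown because Ankrd37 and P4ha2 hold the most matches, P4ha1 pairs with P4ha2, and Adm has the widest spread of signal described here. Capitals mark the core on either strand, and a match is a string of letters, not a measured binding site. In Ankrd37 the matches began at -236, -147, -23, -22 and -4 from the start, the pair at -23 and -22 being overlapping strands of 1 palindrome.
Ankrd37, chr16:53001257-53001556, plus strand: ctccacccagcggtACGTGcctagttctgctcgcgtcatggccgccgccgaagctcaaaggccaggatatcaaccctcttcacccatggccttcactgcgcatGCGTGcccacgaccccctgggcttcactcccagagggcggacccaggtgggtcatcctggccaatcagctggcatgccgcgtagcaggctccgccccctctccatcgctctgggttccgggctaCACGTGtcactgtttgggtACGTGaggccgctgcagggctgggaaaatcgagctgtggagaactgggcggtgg
P4ha2, chr10:38743644-38743943, plus strand: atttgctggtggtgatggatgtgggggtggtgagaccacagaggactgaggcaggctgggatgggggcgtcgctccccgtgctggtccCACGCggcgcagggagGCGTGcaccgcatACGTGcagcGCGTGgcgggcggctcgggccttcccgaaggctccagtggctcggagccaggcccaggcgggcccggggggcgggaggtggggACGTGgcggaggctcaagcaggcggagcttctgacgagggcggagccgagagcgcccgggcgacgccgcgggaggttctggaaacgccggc
P4ha1, chr20:27844796-27845095, plus strand: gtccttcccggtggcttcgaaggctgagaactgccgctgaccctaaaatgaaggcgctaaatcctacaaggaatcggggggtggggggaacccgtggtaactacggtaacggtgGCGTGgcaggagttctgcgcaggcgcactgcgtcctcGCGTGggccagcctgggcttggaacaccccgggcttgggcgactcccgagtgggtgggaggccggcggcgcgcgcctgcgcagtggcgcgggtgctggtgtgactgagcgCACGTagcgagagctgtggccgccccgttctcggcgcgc
Adm, chr1:174179950-174180249, plus strand: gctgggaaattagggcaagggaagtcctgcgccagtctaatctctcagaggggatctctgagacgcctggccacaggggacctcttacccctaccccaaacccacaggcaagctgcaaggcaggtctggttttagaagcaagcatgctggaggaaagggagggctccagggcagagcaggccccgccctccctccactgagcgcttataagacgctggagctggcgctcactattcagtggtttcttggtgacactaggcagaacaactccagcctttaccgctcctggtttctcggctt

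The array reads each transcript with 60-base probes, whose positions the file headers give in the rn4 assembly. For Vegfa they lay at base 3407 of the transcript (chr9:10535933-10535992), at base 1342 (chr9:10528551-10528610) and at base 1538 (chr9:10531934-10531993), all on the plus strand and with bases counted on the transcript each probe's annotation names. Sequences of the probes at bases 1342 and 1538 are given because they carry the same gene name and differed in whether they could be measured at all. Their bases are counted on different transcripts and so give no distance between them. Whether they read the same forms of the transcript was not checked.
Vegfa, base 1342: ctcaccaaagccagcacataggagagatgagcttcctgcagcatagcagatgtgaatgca
Vegfa, base 1538: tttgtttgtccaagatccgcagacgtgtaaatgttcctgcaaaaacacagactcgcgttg

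Signal is given below as log2 of the scanner's processed signal minus the same array's 75th percentile, so 0 is the level of a spot brighter than 75% of the spots on its array. Well-above-background spots made up 42.3% to 53.8% of an array. A probe with such spots on 5 or more arrays was tested, with limma across all 17886 probes of this kind, and a probe was called at a Benjamini-Hochberg adjusted p under 0.05. Vdac1 itself was lower on every KO array than on every WT array on each of its 3 probes. Its brightest probe averaged 1.98 ± 0.65 (SD, n = 7) in KO and 3.21 ± 0.23 (SD, n = 5) in WT (log2 fold change -1.23, limma adjusted p = 0.0561, exact two-sided permutation p = 0.00505). Of the other probes, 1 was called (log2 fold change -1.22, limma adjusted p = 0.0422) and 1 was not (log2 fold change -1.15, limma adjusted p = 0.0897), and the brightest probe was called in 9 of 30 alternatives. The place of these probes relative to the edit could not be set, and in bulk RNA fewer cells with a transcript and less transcript per cell cannot be told apart. The arrays also fall apart by the sample number in their labels, and this touches several values below: KO 1 to 4 and WT 3 stand against KO 5 to 7 and WT 5 to 8, a split placed here with earlier results of these data known. WT 3 is the only WT array among numbers 1 to 4. Of the dopaminergic markers looked up, Th, Slc18a2, Nr4a2 and Aldh1a1 were measurable, 4 of 10, and of the neuronal ones only Tubb3, 1 of 8. Ddc, Slc6a3, Pitx3, Foxa2, Lmx1b and En1 did not pass the filter, so the line showed few of the transcripts that define a mature dopaminergic neuron. Astrocyte and oligodendrocyte markers passed the filter in 0 of 5 cases each. For the other cell types, 1 of 5 microglial markers passed (Cx3cr1). So did 2 of 5 endothelial (Cdh5 and Vwf) and 2 of 5 fibroblast markers (Col1a1 and Pdgfra). Mean levels in KO and WT were -1.62 and -1.78 for Th, -1.275 and -1.90 for Aldh1a1, and lower for Slc18a2, Nr4a2 and Tubb3. Vwf (1.95 and 1.89) and Cx3cr1 (-0.50 and -0.37) were brighter than all of these, and Cdh5, Col1a1 and Pdgfra were dimmer than Th. Of the 10 markers tested, limma called 0 in either direction, and 1 (Nr4a2, lower in KO) had an unadjusted p under 0.05.

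Of the 10 hypoxia-inducible genes, 0 were called higher and 0 lower in KO by limma, where 1.15% of all tested probes were called (0.704% higher, 0.442% lower). At an unadjusted p under 0.05, Car9 and Ankrd37 were on the higher side and Vegfa on the lower side, against 9.2% of all probes higher and 6.62% lower. The median log2 fold change of the 10 genes, by their brightest probe, was 0.129, against 0.035 over all probes tested, with 6 of 10 positive, against 54.34% of all probes. Without WT 3 the median of the 10 genes was 0.028, against 0.0405 over all probes, and it was -0.115 within numbers 1 to 4, -0.0643 within slide 2 and -0.0329 within slide 3. All 10 genes had overlapping KO and WT arrays, while 2.67% of all probes had groups that did not overlap. Exact two-sided permutation p-values are unadjusted and treat all 12 arrays as exchangeable, and those of Vegfa, Car9 and Ankrd37 stand below. For the other genes they were 0.688 (Egln1), 0.141 (Egln3), 0.588 (Adm), 0.753 (Ndrg1), 0.468 (P4ha1), 0.0846 (P4ha2) and 0.307 (Kdm3a). In independent values simulated with each probe's mean and fitted spread, the fit found 6% of log2 changes of 0.5, 66% of changes of 1 and 98% of changes of 2. Differences near 0.5 would thus mostly go uncalled in such values, which lack the sample-number and slide structure of these arrays.

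**Figure D1:**
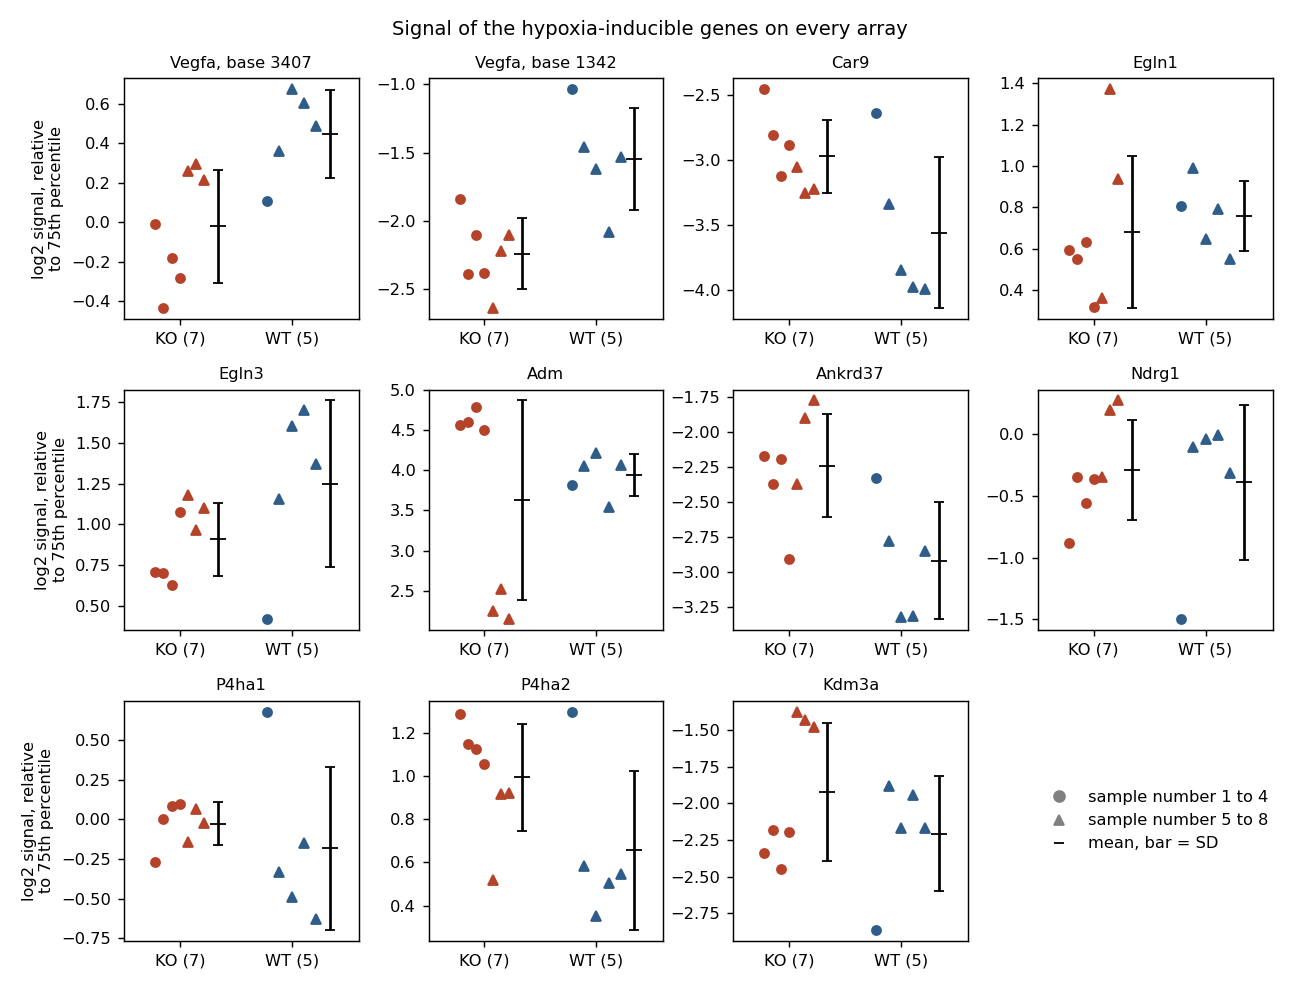
Log2 signal relative to the array's 75th percentile for each tested probe of the 10 genes, with 1 point per array, KO left and WT right, and the mean with its SD beside each group. Adm separates into KO arrays near 4.6 and near 2.3 with the WT arrays in between, and WT 3 (the only blue circle) stands apart from the other WT arrays for Ndrg1 and P4ha2.

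The secreted signals come first. Vegfa, the main growth factor for blood vessels, also acts on neurons. Its probe at base 1342 read -1.84, -2.39, -2.10, -2.38, -2.635, -2.22 and -2.10 on KO 1 to 7, against -1.04, -1.46, -1.62, -2.08 and -1.53 on WT 3, 5, 6, 7 and 8. Every KO array but KO 1 lay below every WT array, and KO 1 lay below 4 of the 5, WT 7 being the exception. The means were -2.24 ± 0.26 (SD, n = 7) in KO and -1.55 ± 0.38 (SD, n = 5) in WT, a log2 fold change of -0.69 (SE 0.18, 1.62-fold lower in KO), which limma did not call (adjusted p = 0.0886, exact two-sided permutation p = 0.00253). Within each of the 3 slides every KO array was below every WT array on this probe, by 0.878, 0.651 and 0.656 in log2. These groups are small, 2 KO and 2 WT arrays on slides 1 and 3 and 3 KO and 1 WT on slide 2. Slide 2 sets KO 1 to 3 against WT 5, and slide 1 sets KO 6 and 7 against WT 3 and 8. Comparing within slides thus does not remove the sample-number split. The share of all probes that separate on every slide was not counted. With the slide as a block the limma adjusted p was 0.036, where 1.05% of all probes were called lower, and with the sample-number split as a block it was 0.0236, where 2.15% were. The split fit compares numbers 1 to 4 with WT 3 alone, which read highest of all arrays on this probe. Over all alternatives the adjusted p of this probe ran from 0.00388 to 0.891. On the brighter Vegfa probe, at base 3407, the means were -0.02 ± 0.29 (SD, n = 7) in KO and 0.45 ± 0.22 (SD, n = 5) in WT.

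That difference of -0.47 (SE 0.16) was not called either (limma adjusted p = 0.186, exact two-sided permutation p = 0.0177). On slide 1 the groups overlapped on the probe at base 3407, with a difference of -0.045. On slides 2 and 3 every KO array was below every WT array on it (-0.568 and -0.652). KO 1 to 4 read between -0.434 and -0.011 and KO 5 to 7 between 0.211 and 0.293, with WT 3 at 0.109 and WT 5 to 8 between 0.359 and 0.672. Both of these Vegfa probes were thus lower in KO within numbers 1 to 4, by 0.337 at base 3407 and 1.14 at base 1342. These values rest on WT 3 alone, which lay below WT 5 to 8 at base 3407 and above them at base 1342. Both probes were also lower in KO within numbers 5 to 8 (by 0.276 and 0.646), neither being called. The probe at base 1538 was well above background on 1 of 7 KO and 0 of 5 WT arrays and was not tested.

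Adm encodes adrenomedullin, a secreted peptide that widens blood vessels and is induced by low oxygen in many cell types. Its KO signal was 4.56, 4.61, 4.79 and 4.51 on KO 1 to 4 and 2.255, 2.52 and 2.15 on KO 5 to 7, against 3.81, 4.05, 4.21, 3.54 and 4.07 on WT 3, 5, 6, 7 and 8. KO 1 to 4 thus lay above every WT array and KO 5 to 7 below every WT array, with no value in the gap between 2.52 and 3.54. Among all tested probes, 0.934% had KO 1 to 4 and KO 5 to 7 on opposite sides of every WT array. The overall comparison averages these levels, 3.63 ± 1.24 (SD, n = 7) in KO and 3.94 ± 0.26 (SD, n = 5) in WT, and its log2 fold change of -0.31 has an interval from -1.39 to 0.77 (limma adjusted p = 0.811).

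Taken by sample number, Adm in numbers 5 to 8 had a log2 fold change of -1.66 (SE 0.20, n = 3 KO and 4 WT, limma adjusted p = 0.00599, where 2.2% of probes were called lower). The adjusted p over all alternatives for Adm ran from 0.00599 to 1. In numbers 1 to 4 it was 0.80 higher in KO (SE 0.19, n = 4 KO and 1 WT, limma adjusted p = 0.126), a comparison that rests on the single array WT 3 and borrows its spread from the KO arrays. The difference between these effects was -2.46 (SE 0.31, limma interaction adjusted p = 0.00324), rank 32 by p of the 17884 probes in which it could be fitted. KO 5 to 7 were 4.95-fold below KO 1 to 4. KO 4 and KO 5, which lie on either side of this step, were hybridised on the same slide and read 4.51 and 2.255. Adm had 10 spots per array, and the SD over the spots of an array was between 0.0379 and 0.1499, which measures repeat spots and not cultures. The brightest probe of Vdac1 also separated these KO arrays, as did 36.8% of all tested probes. It read 2.26 to 2.68 on KO 1 to 4 and 1.20 to 1.53 on KO 5 to 7. In WT it read 3.07 to 3.61, so both runs of KO arrays lay below WT for Vdac1, unlike for Adm. Any part of Vdac1 in the Adm levels was not tested.

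**Figure D2:**
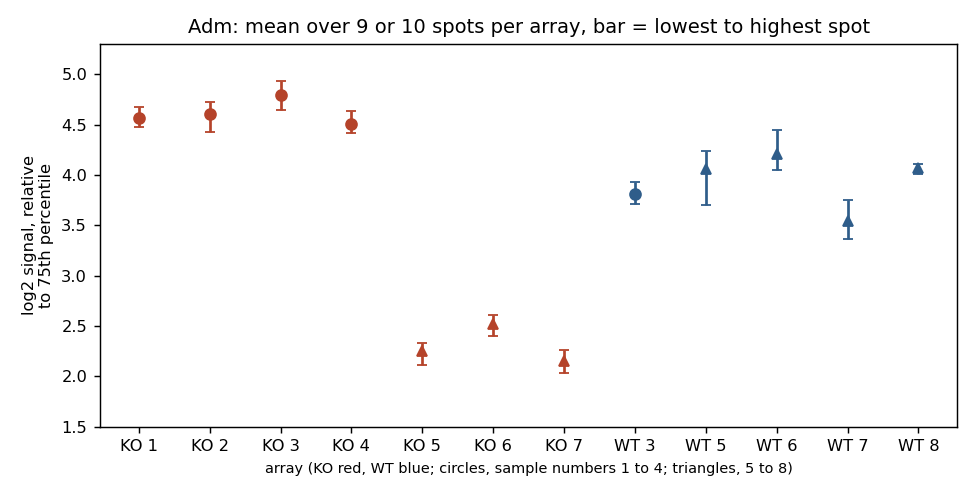
Log2 signal of Adm on each array, KO arrays left and WT arrays right, as the mean over the 9 or 10 usable spots with a bar from the lowest to the highest spot. KO 1 to 4 sit above and KO 5 to 7 below all 5 WT arrays. The bars show technical spread within an array only, not variation between cultures.

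Car9 encodes carbonic anhydrase IX, which sits on the cell surface and helps a cell export acid. KO arrays ran from -3.25 through a median of -3.05 to -2.45, against -2.635, -3.34, -3.845, -3.97 and -3.99 on WT 3, 5, 6, 7 and 8. All KO arrays were above the 4 WT arrays numbered 5 to 8, while WT 3 was higher than every KO array but KO 1. The probe was dim, well above background on 7 of 7 KO arrays and 3 of 5 WT arrays. Its means of -2.97 ± 0.28 (SD, n = 7) in KO and -3.56 ± 0.58 (SD, n = 5) in WT gave a log2 fold change of 0.59 (SE 0.24), not called (limma adjusted p = 0.249, exact two-sided permutation p = 0.0467). Without WT 3 it was 0.818 (limma adjusted p = 0.030, 2.47% of probes called higher), and within numbers 1 to 4, where WT 3 is the only WT array, it was -0.18. With normexp background correction it was 0.0949 (limma adjusted p = 0.988). The adjusted p ran from 0.00688 to 0.988 over all alternatives.

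Egln1 and Egln3 are oxygen sensors, prolyl hydroxylases that mark HIF alpha for destruction, and both are also HIF targets. Egln1 averaged 0.68 ± 0.37 (SD, n = 7) in KO and 0.76 ± 0.17 (SD, n = 5) in WT, a difference of -0.08 with an interval from -0.47 to 0.31 (limma adjusted p = 0.881). Its highest arrays were KO 6 at 1.37, WT 5 at 0.991 and KO 7 at 0.937, and the other KO arrays lay between 0.316 and 0.631. Egln3 read between 0.626 and 1.18 in KO with a median of 0.963, against 0.42, 1.15, 1.605, 1.70 and 1.37 on WT 3, 5, 6, 7 and 8. WT 3 was below every KO array and WT 6, 7 and 8 were above every KO array. The Egln3 means were 0.91 ± 0.23 (SD, n = 7) in KO and 1.25 ± 0.51 (SD, n = 5) in WT (log2 fold change -0.34, limma adjusted p = 0.444). Within numbers 5 to 8 the difference was -0.376 and within numbers 1 to 4 it was 0.357.

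P4ha1 and P4ha2 encode catalytic subunits of collagen prolyl 4-hydroxylase, the enzyme that stabilises the collagen triple helix. P4ha2 lay at 0.517 to 1.28 in KO with a median of 1.05, against 1.30, 0.581, 0.353, 0.503 and 0.546 on WT 3, 5, 6, 7 and 8. WT 3 was the highest of all 12 arrays, while of the KO arrays only KO 5 fell within the range of the other WT arrays. The means of 0.99 ± 0.25 (SD, n = 7) in KO and 0.66 ± 0.37 (SD, n = 5) in WT differed by 0.34 (SE 0.18), not called (limma adjusted p = 0.379). P4ha1 was tight in KO at -0.268 to 0.096, against 0.679 on WT 3 and between -0.627 and -0.15 on WT 5 to 8. Its log2 fold change was 0.16 (SE 0.20, limma adjusted p = 0.744) over all arrays, 0.365 within numbers 5 to 8 and -0.70 within numbers 1 to 4. The interaction for P4ha1 was 1.07 (SE 0.27) and was not called (limma adjusted p = 0.0739). WT 3 is the only WT array behind the values of both subunits within numbers 1 to 4.

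Kdm3a is a histone demethylase that removes methyl groups from lysine 9 of histone H3, and Ndrg1 is a stress-responsive cytoplasmic protein. Kdm3a read -2.34, -2.18, -2.445 and -2.20 on KO 1 to 4 and -1.37, -1.43 and -1.48 on KO 5 to 7, against -2.86 on WT 3 and -1.88, -2.17, -1.945 and -2.17 on WT 5 to 8. Here each run of numbers had its own level and KO lay above WT in both. Over all arrays the difference was 0.29 (SE 0.24, limma adjusted p = 0.599). It was 0.121 without WT 3, 0.0971 with normexp background correction and -0.107 with array weights. It was 0.573 within numbers 1 to 4 (limma adjusted p = 0.206) and 0.614 within numbers 5 to 8 (limma adjusted p = 0.0575), and 0.601 (SE 0.11, limma adjusted p = 0.0104) with the split as a block, a fit that called 2.95% of all probes higher. Over all alternatives the adjusted p of Kdm3a ran from 0.0104 to 1. This fit compares numbers 1 to 4 with WT 3 alone, and on slide 2, which holds KO 1 to 3 and WT 5, the difference was -0.44.

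Ndrg1 averaged -0.29 ± 0.41 (SD, n = 7) in KO and -0.39 ± 0.63 (SD, n = 5) in WT, a difference of 0.10 (SE 0.27, limma adjusted p = 0.899). WT 3 read -1.496, below all other arrays, whereas WT 5 to 8 lay between -0.314 and -0.003 and KO between -0.885 and 0.274. Leaving out WT 3 turned the difference to -0.176 (limma adjusted p = 0.671).

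Ankrd37, a small ankyrin-repeat protein, is induced by low oxygen through HIF. KO arrays ran from -2.91 through a median of -2.19 to -1.77, against -2.325, -2.78, -3.32, -3.32 and -2.85 on WT 3, 5, 6, 7 and 8. Every KO array but KO 4 was above WT 5 to 8, and WT 3 lay among the KO arrays. The means of -2.24 ± 0.37 (SD, n = 7) in KO and -2.92 ± 0.42 (SD, n = 5) in WT gave 0.68 (SE 0.22, limma adjusted p = 0.151, exact two-sided permutation p = 0.0240). All KO arrays exceeded all WT arrays within each slide, by 0.754, 0.533 and 0.682. Slides 1 and 3 hold 2 KO and 2 WT arrays and slide 2 holds 3 KO and 1 WT. Slide 2 sets KO 1 to 3 against WT 5, so comparing within slides does not remove the sample-number split. How many of all probes separate on every slide was not counted. With the slide as a block limma gave an adjusted p of 0.0364, in a fit that called 1.59% of all probes higher. It was called within numbers 5 to 8 as well (log2 fold change 1.05, n = 3 KO and 4 WT, limma adjusted p = 0.0409, 2.01% of probes called higher), and was -0.0846 within numbers 1 to 4. Leaving out WT 3 gave 0.828 (limma adjusted p = 0.0479) and normexp background correction gave 0.186 (limma adjusted p = 0.974), and over all alternatives the adjusted p ran from 0.00733 to 0.974. The interaction of 1.14 (SE 0.41) was not called (limma adjusted p = 0.188).

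**Figure D3:**
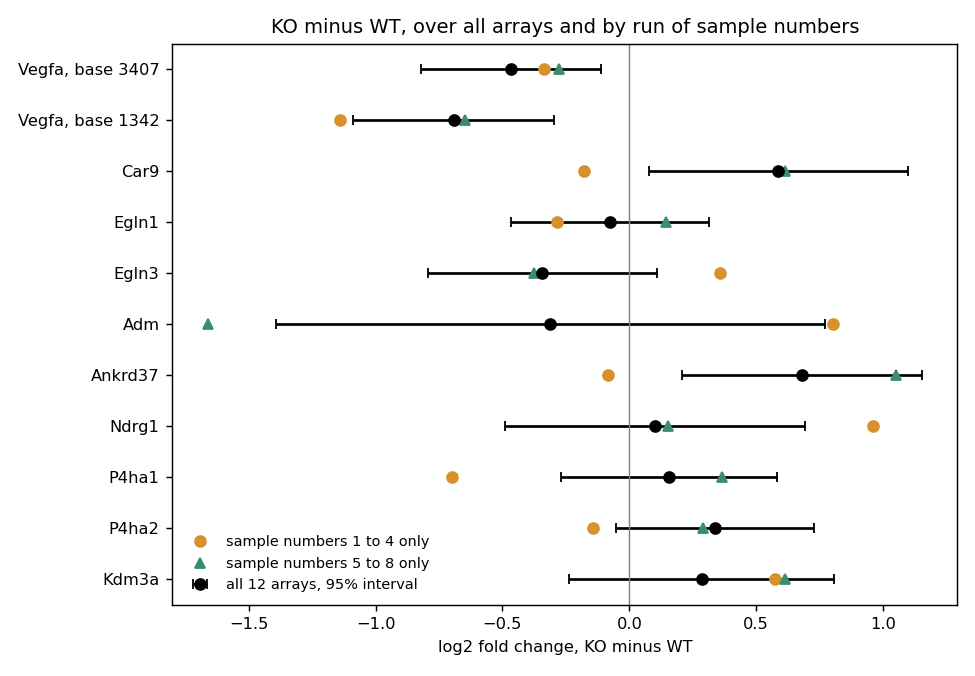
Log2 fold change, KO minus WT, for each tested probe over all 12 arrays (black, with the 95% interval), within sample numbers 1 to 4 (circles, against the single array WT 3) and within numbers 5 to 8 (triangles). Adm has the widest interval, with 0.80 in numbers 1 to 4 and -1.66 in numbers 5 to 8, and Vegfa is below 0 in each.

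The sample-number split was counted over the tested probes of the 10 genes, Adm included. KO 1 to 4 and KO 5 to 7 did not overlap on 4 of the 11 tested probes (Vegfa at base 3407, Adm, P4ha2 and Kdm3a), against 36.8% of all probes. WT 3 lay outside the range of WT 5 to 8 on 9 of the 11, against 60.6% of all probes, above it on 5 and below it on 4. Of the 11 interactions only that of Adm was called, against 1.7% of all probes.

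Other parts of the hypoxia pathway were read from lists chosen with earlier results of these data known. Of all tested probes, limma called 0.704% higher and 0.442% lower. At an unadjusted p under 0.05 the shares were 9.2% and 6.62%, and the median log2 fold change over all probes was 0.035. HIF pathway regulators, which include the HIF subunits, VHL and the coactivators, had 11 of 13 genes tested, 0 called either way (0 also at an unadjusted p under 0.05) and a median log2 fold change of 0.0324. The smallest p among them was that of the coactivator Ep300, at 0.43 ± 0.17 (SD, n = 7) in KO and 0.66 ± 0.09 (SD, n = 5) in WT (limma adjusted p = 0.381). Hif1a, the best-known alpha subunit, averaged 2.79 ± 0.33 (SD, n = 7) in KO and 2.49 ± 0.26 (SD, n = 5) in WT (limma adjusted p = 0.433), and its protein level, which oxygen governs, is not measured by these arrays. Among 40 other hypoxia-inducible genes 29 were tested, with 1 called higher, 0 called lower (6 and 4 at an unadjusted p under 0.05) and a median of 0.0879. The called gene was Bnip3, a receptor that tags mitochondria for autophagy, at 1.24 ± 0.28 (SD, n = 7) in KO and 0.01 ± 0.24 (SD, n = 5) in WT (log2 fold change 1.24, SE 0.17, limma adjusted p = 0.00707). Every KO array was above every WT array, as on 311 of all 17886 tested probes.

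The hypoxia-inducible genes of glycolysis had 19 of 20 tested, 2 called higher and 0 lower (12 and 1 at an unadjusted p under 0.05), with 18 positive differences and a median of 0.498, the largest of the 5 medians. Over all tested probes 0.704% were called higher and 0.442% lower, with 9.2% and 6.62% at an unadjusted p under 0.05. Of all probes 54.34% had a positive difference, and their median was 0.035. Tpi1, the triose phosphate isomerase, rose by 1.08 (SE 0.13, limma adjusted p = 0.00429) and Aldoa, an aldolase, by 0.85 (SE 0.15, limma adjusted p = 0.0243). Whether the glycolytic and the other hypoxia-inducible genes differ was not tested, and their medians are a description. Partners and paralogs of the 10 genes (receptors, related enzymes and acid transporters) had 20 of 28 tested, 0 called either way (2 higher and 2 lower at an unadjusted p under 0.05) and a median of 0.0633. The smallest p was that of Nrp1, neuropilin 1, a co-receptor for VEGF, at -2.86 ± 0.42 (SD, n = 7) in KO and -1.91 ± 0.42 (SD, n = 5) in WT. Its log2 fold change was -0.94 (SE 0.23, limma adjusted p = 0.0690), with every KO array below every WT array, as on 167 of all 17886 tested probes. Chosen after its values were seen, the VEGF receptor Flt1 stood at -2.61 ± 0.43 (SD, n = 7) in KO and -1.71 ± 0.50 (SD, n = 5) in WT (limma adjusted p = 0.101).

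**Figure D4:**
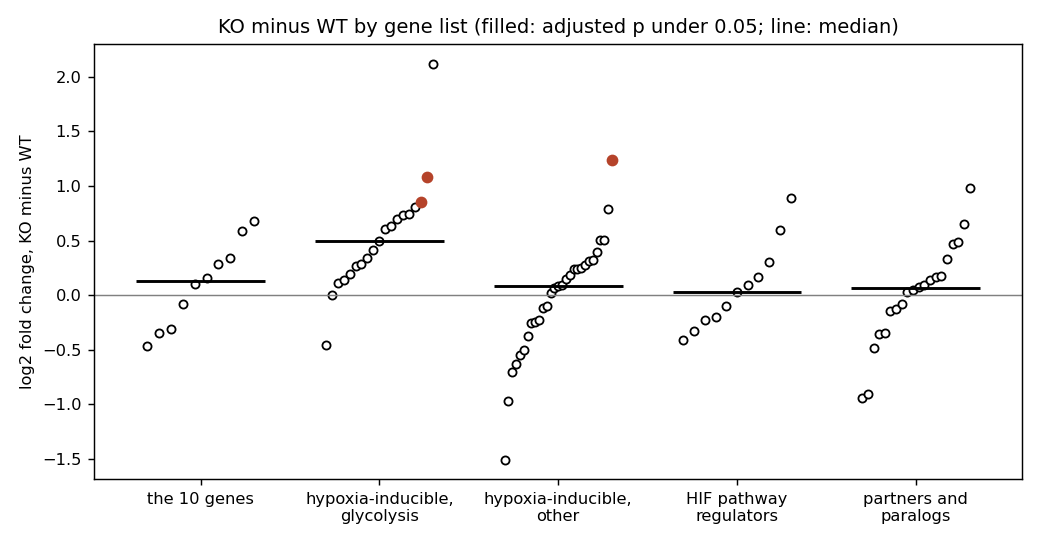
Log2 fold change, KO minus WT, by the brightest probe of each tested gene, with 1 point per gene, a line at each list's median and filled points for genes called by limma. The filled points are Tpi1, Aldoa and Bnip3, and the 10 genes are spread around their median of 0.129 with none filled.

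Across the 12 arrays, the tested probes of other named genes that most resembled Vegfa at base 1342 were those of Taf3 (Pearson r = 0.936), Col5a2 (r = 0.927) and Pspc1 (r = 0.926). These are the highest values among the tested probes of other named genes and describe these 12 arrays, which share the genotype and sample-number structure. Col5a2, a collagen chain, was itself called lower in KO by 1.32 (SE 0.22, limma adjusted p = 0.0197), while Taf3 and Pspc1 were not called.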

How the data were processed

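Trizol was used to extract the RNA and Cy3 to label it, per the labels' protocols. Images were read with Agilent Feature Extraction, version 10.7 per the submitters' processing notes and 10.1.1.1 per the file headers. Each spot's processed signal is a linear intensity, per the file headers, with mean signal, local background and yes-or-no flags as other columns. The deposited value table holds log2 values, the same sorted values in every column (median 3.06, lowest 1.5), with a Spearman correlation with the scanner signal of 0.999. The sample titles begin with "Q. Norm.", read here as quantile normalization. Its other steps are not given in the sources used here, and it served as an alternative. Probe coordinates are in rn4, per the file headers, and were not checked against a genome.

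Uneven and outlier spots were dropped. The log2 intensities of the remaining spots of a probe were averaged and set relative to the 75th percentile of their array. The 58717 spots that are not controls gave 45598 probes, named through the RefSeq table (21102 by accession, 6691 by symbol, 424 by synonym) or as in the file (17381). Probes well above background on 5 or more arrays were tested with limma 3.58.1 in R 4.3.3 (two-sided, lmFit then eBayes, without covariates), checked on simulated data. All 792 splits of the arrays gave exact two-sided permutation p-values for single probes, not adjusted for the number of probes. No spot was saturated, and the number of arrays limits the precision. The 12 arrays lay on 3 slides (2 KO and 2 WT on slides 1 and 3, 3 KO and 1 WT on slide 2) scanned on 2 days.

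The genes, lists and the sample-number split were chosen with earlier results of these data known. Named were all 10 genes with every probe, Vdac1, up to 4 called genes per list or the one with the smallest p, and the 3 probes most like the gene with the smallest p. Hif1a and Flt1 were named after their values were seen. Alternatives covered background correction, normalization, filters, probes per gene, flags, blocks, subsets, array weights and each array left out. Same-numbered KO and WT arrays did not deviate together in every pair (r of 0.445, -0.114, 0.067 and 0.05), so the numbers were not taken as pairs.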

Additional observations from a re-analysis of the deposited data

Results flagged for a closer look

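Adm differed between sample numbers 5 to 8 and 1 to 4 in its KO effect by -2.462 (limma interaction adjusted p = 0.00324), 1 of 304 probes called in that test. Within slide 1 (KO 6 and 7, WT 3 and 8) Adm was lower on both KO arrays (-1.604 in log2), and within slide 2 (KO 1 to 3, WT 5) it was higher on all KO arrays, by 0.598.

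For 3 further genes KO and WT separated in opposite directions on different slides, and these differences were not tested. A slide holds only 2 KO and 2 WT arrays (slides 1 and 3) or 3 KO and 1 WT (slide 2). The share of all probes that separate this way was not counted, so the count is not a result about these genes. Egln1 differed by 0.475 on slide 1, -0.4 on slide 2 and -0.378 on slide 3. Ndrg1 differed by 1.138 on slide 1, where WT 3 lies, and by -0.491 and -0.337 on slides 2 and 3. Kdm3a differed by 1.063 on slide 1 and by -0.44 on slide 2, whose KO arrays are all numbered 1 to 3 and whose WT array is numbered 5.

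WT 3 stood far from the other WT arrays for Ndrg1, at -1.496, and for P4ha2, at 1.297. These are 2 of 22 groups of arrays examined, where chance would single out about 1 in 20.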

How the results depend on the processing

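No gene of the 10 was called with normexp, quantile normalization, the percentile over detected probes, the authors' deposited table, either other filter, 1 probe per gene or outlier spots kept. With the slide as a block, 1 gene was called higher (Ankrd37) and 1 lower (Vegfa), with the scan day as a block 1 lower (Vegfa), with the sample-number split as a block 1 higher (Kdm3a) and 1 lower (Vegfa), and within numbers 5 to 8 1 higher (Ankrd37) and 1 lower (Adm). Array weights called 4 higher (Car9, Ankrd37, P4ha1 and P4ha2) and 2 lower (Vegfa and Egln3). Leaving out each replicate gave 0 to 2 genes higher, the 2 (Car9 and Ankrd37) without WT 3, and 0 lower. The difference stayed below 0 for both tested Vegfa probes in every alternative that gave a value. At base 3407 it was only -0.0452 within slide 1. The difference was above 0 for Ankrd37 in 29 of 30 and for Car9 in 28 of 29, while Adm was above 0 in 3 of 30. With normexp it was only 0.186 for Ankrd37 and 0.0949 for Car9, against 0.679 and 0.587 as reported. Over all probes, 126 were called higher and 79 lower as reported. The counts were 21 and 10 with normexp, 0 and 0 with no filter, 211 and 131 with detection on all arrays, 284 and 188 with the slide block, 228 and 155 with the scan day block, 528 and 385 with the sample-number block, 360 and 393 within numbers 5 to 8, 47 and 6 within numbers 1 to 4, 0 and 0 within slides 1 and 3, 1102 and 1061 within slide 2, and 3064 and 2760 with array weights. Higher calls were 66 with quantile normalization, 73 with the percentile over detected probes and 64 with the authors' deposited table. Without each replicate in turn the counts ran from 13 to 442 higher and from 4 to 333 lower, most of both without WT 3. The replicate block, over numbers 3, 5, 6 and 7, called 0 probes higher and 0 lower and 0 of the 10 genes. It uses 8 arrays in place of 12. The median of the other hypoxia-inducible genes was -0.0768 within slide 2 and -0.012 with normexp, against 0.0879 as reported, and 0.00898 to 0.172 with each replicate left out. The cause of these moves was not tested. No scaling moved the median of all probes by more than 0.1 in log2.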

Other observations

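The files name a further probe, LOC690182, as similar to Egln1, and it shares no run longer than 5 bases with the Egln1 probe. Only the probes were compared, not the Egln1 transcript, so whether LOC690182 also reads Egln1 RNA was not tested. LOC690182 was chosen after its values were seen. Its signal averaged 1.38 ± 0.28 (SD, n = 7) in KO and 0.88 ± 0.28 (SD, n = 5) in WT, a log2 fold change of 0.50 (SE 0.17) that was not called (limma adjusted p = 0.174). The Egln1 probe itself differed by -0.08 between the same groups.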
